A study of Homo sapiens with 4 samples.

Results

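The genes described here encode the subunits of the cytosolic chaperonin CCT, also called TRiC. They are TCP1 (subunit alpha), CCT2 (beta), CCT3 (gamma), CCT4 (delta), CCT5 (epsilon), CCT6A (zeta), CCT7 (eta) and CCT8 (theta). Members were chosen by gene symbol alone, and all 8 were found among the 36601 genes listed for each library. CCT6B, a testis form of the zeta subunit, is not a member and is counted below with the chaperonin-like genes.

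BEAS-2B cells, an established human line that derives from bronchial epithelium and was immortalized, were exposed to gamma rays from a Cs-137 source and measured by droplet single-cell sequencing of 3′ mRNA ends. The 4 groups were a control without radiation, 10 mGy, 100 mGy and 1 Gy. Irradiated cells were cultured for 30 min before they were processed, and no agent other than radiation is named for any group. Each group was 1 library of 1 cell line, so dose and library cannot be told apart, no test between doses was possible, and all intervals below are 95% intervals for counting error only.

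CCT is a barrel of stacked rings, and each ring holds 1 copy of each subunit. Newly made proteins enter the cavity and fold there while ATP is hydrolysed. Actin and tubulin depend on it, as do cell cycle regulators such as CDC20, and prefoldin hands unfolded actin and tubulin chains over to it. Because the complex needs its subunits in equal number, the levels of their mRNAs are often looked at together.

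The libraries held between 11111 and 21514 cell barcodes and between 211752280 and 285806026 unique molecular identifiers (UMIs), each of which stands for 1 captured mRNA molecule. Barcodes whose UMI count, multiplied by 3, stayed below the library median are called low-UMI barcodes here and accounted for 19.6% of barcodes without radiation, 41.4% after 10 mGy, 27.4% after 100 mGy and 25.4% after 1 Gy. Pairs of libraries shared 76 to 134 barcode sequences, at most 0.864% of a library. Of the epithelial markers, KRT7, KRT8, KRT18 and KRT17 were present (65.8 to 645 counts per 1000000 UMIs, CPM), whereas KRT19 and EPCAM stayed between 0.902 and 2.41 CPM and KRT5 and CDH1 at or below 0.0490 CPM. VIM and FN1, which mark mesenchymal cells, were abundant at 623 to 2702 CPM. Summed markers of leukocytes, endothelium and erythroid cells reached 1.58, 0.679 and 0.135 CPM at most.

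Promoters are shown for TCP1 and CCT7, which had the lowest and the highest ratio to the control after 10 mGy, and for CCT2 and CCT3, which differed most between 100 mGy and 10 mGy. Each sequence runs 5′ to 3′ from 250 bases before the gene's start to 50 bases after it, taken from RefSeq on GRCh38.p14, a build other than the one that the submitters' notes name for the counts. Capitals mark matches, on either strand, to GAANNTTC or TTCNNGAA (short forms of the heat shock element), CACGTG (E-box), CCGGAAG (ETS core), GGGCGG (GC box) or CCAAT.
TCP1 (chr6:159789553-159789852, minus strand): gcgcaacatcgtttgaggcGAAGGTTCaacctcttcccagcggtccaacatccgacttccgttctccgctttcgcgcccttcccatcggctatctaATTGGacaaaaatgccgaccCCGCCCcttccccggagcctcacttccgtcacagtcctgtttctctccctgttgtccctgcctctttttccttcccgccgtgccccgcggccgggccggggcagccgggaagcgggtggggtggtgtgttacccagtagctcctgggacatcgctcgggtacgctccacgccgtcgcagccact
CCT7 (chr2:73234058-73234357, plus strand): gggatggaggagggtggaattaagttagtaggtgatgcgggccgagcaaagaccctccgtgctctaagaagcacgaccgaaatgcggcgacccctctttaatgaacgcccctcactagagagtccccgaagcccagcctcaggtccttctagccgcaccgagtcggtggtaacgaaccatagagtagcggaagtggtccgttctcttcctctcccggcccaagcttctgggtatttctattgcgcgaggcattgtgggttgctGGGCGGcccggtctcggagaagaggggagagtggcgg
CCT2 (chr12:69585209-69585508, plus strand, the first of its 2 starts): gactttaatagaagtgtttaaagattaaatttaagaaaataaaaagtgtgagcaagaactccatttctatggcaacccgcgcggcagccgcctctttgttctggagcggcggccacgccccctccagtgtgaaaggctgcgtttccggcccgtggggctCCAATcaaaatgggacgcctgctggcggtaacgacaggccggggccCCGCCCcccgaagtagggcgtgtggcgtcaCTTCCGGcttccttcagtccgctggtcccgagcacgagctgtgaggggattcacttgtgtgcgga
CCT3 (chr1:156338243-156338542, minus strand): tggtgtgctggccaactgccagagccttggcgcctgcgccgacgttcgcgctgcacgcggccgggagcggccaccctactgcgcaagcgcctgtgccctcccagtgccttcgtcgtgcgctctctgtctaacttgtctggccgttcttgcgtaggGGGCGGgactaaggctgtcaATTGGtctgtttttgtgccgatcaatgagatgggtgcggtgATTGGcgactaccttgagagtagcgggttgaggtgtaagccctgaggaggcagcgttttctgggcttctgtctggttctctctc

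The table held 9 promoters for 7 of the subunits and no entry for CCT6A. GAANNTTC matched at TCP1 and at the second start of CCT2, and TTCNNGAA at 1 start of CCT4, while 6.77% and 7.74% of the 35116 promoters in the table hold these letters. CACGTG was found at none of the 9 and in 7.26% of all promoters. GGGCGG was found at TCP1, CCT2, CCT3, CCT7 and CCT8 (45% of all promoters), CCAAT at TCP1, CCT2, CCT3 and CCT8 (34.6%), and the ETS core at CCT2 alone (10.3%). CCT5 matched none of the 6 motifs. These are matches of letters only, and nothing about a factor follows from a match or from its absence.

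Summed over the 8 subunits, CCT accounted for 0.2364% of the UMIs of the control (0.2357 to 0.2370%), 0.1970% after 10 mGy (0.1965 to 0.1976%), 0.2276% after 100 mGy (0.2270 to 0.2282%) and 0.2180% after 1 Gy (0.2174 to 0.2186%). As a share of all UMIs the summed level was highest in the control and lowest after 10 mGy, and the 4 intervals did not overlap. The order depends on the scaling. Median ratio scaling sets near 1 the median over all genes with counts in every library, however scarce. Under it the summed level was 1.36 of the control after 100 mGy, 1.09 after 10 mGy and 0.895 after 1 Gy. By CPM the median ratio of the 1779 genes of at least 100 CPM was 0.959 after 10 mGy and 0.950 after 100 mGy. Each subunit passed that level, and the median of this set was not taken under median ratio scaling. With totals that leave out ribosomal protein and mitochondrially encoded genes 100 mGy was highest (1.05) and 10 mGy lowest (0.885). In UMIs, 461608 to 563143 molecules stood behind each of these shares, and the median barcode held 47.0 CCT UMIs in the control, 25 after 10 mGy, 27.0 after 100 mGy and 31.0 after 1 Gy. Without low-UMI barcodes these medians were 52.0, 40, 35.0 and 37.0. Barcodes held a median of 12417 to 19771 UMIs of all genes, depending on the library, so levels are given below as pooled CPM, summed over every deposited barcode. They are not divided by transcript length, because a 3′ end is counted once per molecule, and each gene is compared only with itself between libraries.

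TCP1, the subunit after which the complex was first named, measured 287 CPM in the control, 203 after 10 mGy, 217 after 100 mGy and 264 after 1 Gy. CCT5 measured 385, 281, 309 and 346 CPM in the same order, and CCT4 measured 185, 161, 171 and 183 CPM. These 3 subunits shared an order, with the control highest, then 1 Gy, then 100 mGy, and 10 mGy lowest, although the control and 1 Gy were within counting error of each other for CCT4. CCT3 measured 387 CPM in the control, 303 after 10 mGy, 384 after 100 mGy and 357 after 1 Gy. CCT6A measured 445, 353, 419 and 386 CPM. Both were lowest after 10 mGy and had 100 mGy above 1 Gy, and the control and 100 mGy were within counting error of each other for CCT3.

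CCT2 measured 281 CPM in the control, 266 after 10 mGy, 332 after 100 mGy and 242 after 1 Gy. CCT8 measured 246, 242, 257 and 241 CPM, of which the values after 10 mGy and 1 Gy were within counting error. Both were highest after 100 mGy and lowest after 1 Gy. CCT7 measured 149 CPM in the control, 161 after 10 mGy, 188 after 100 mGy and 161 after 1 Gy, and it was the only subunit with its lowest level in the control. By CPM the 10 mGy library was thus the lowest of the 4 for TCP1, CCT3, CCT4, CCT5 and CCT6A, and 100 mGy was above 10 mGy for every subunit. Under median ratio scaling 100 mGy was the highest library for every subunit, and 1 Gy was the lowest for each subunit other than CCT7, whose lowest level stayed in the control. No share of all genes was taken for these orders.

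**Figure D1:**
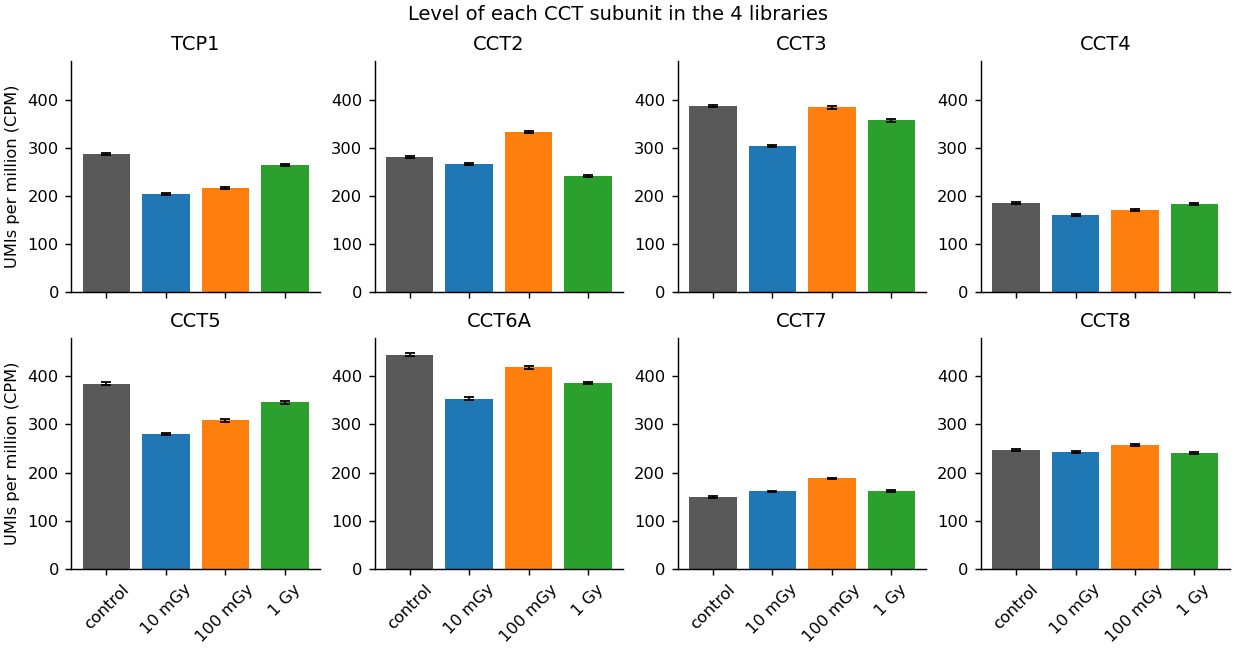
Bars give the pooled level of each subunit in CPM (y axis, from 0) in the 4 libraries (x axis), and error bars are exact 95% Poisson intervals for counting error. TCP1 and CCT5 are lowest after 10 mGy (203 and 281 CPM), CCT2 is highest after 100 mGy (332 CPM), and CCT7 is lowest in the control (149 CPM); under median ratio scaling TCP1 and CCT5 are lowest after 1 Gy.

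After 10 mGy, 7 of the 8 subunits were below the control, as were 6115 of the 8507 genes with a mean of at least 10 CPM. TCP1 stood at 0.709 of the control level (0.701 to 0.717), CCT5 at 0.730 (0.723 to 0.737), CCT3 at 0.784 (0.777 to 0.792) and CCT6A at 0.795 (0.788 to 0.802). These 4 were lower by over 1.2-fold, the threshold of fold change used in the study, and 53.0% of the 8507 genes with a mean of at least 10 CPM were lower by as much. None was higher by over 1.2-fold, against 15.4% of all genes tested. CCT4 stood at 0.869, CCT2 at 0.947, CCT8 at 0.984 and CCT7 at 1.08 (1.06 to 1.09). The median of the 8 ratios was 0.831, that of all genes tested was 0.810, and that of the 1779 genes of at least 100 CPM was 0.959.

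The median of all genes tested differed between comparisons: on the log2 scale it lay at -0.30 after 10 mGy, -0.38 after 100 mGy and 0.02 after 1 Gy. Ribosomal protein genes took 14.0% of the UMIs in the control, 20% after 10 mGy, 21.8% after 100 mGy and 14.0% after 1 Gy. With totals that leave out ribosomal protein and mitochondrially encoded genes the median of all genes stood at 0.860 after 10 mGy and 0.832 after 100 mGy, and under median ratio scaling at 1.05 and 1.08. Relative to the median gene, TCP1 was lower after 10 mGy by 0.19 on the log2 scale and CCT5 by 0.15, CCT3 and CCT6A lay within 0.05 of it, and CCT4, CCT2, CCT8 and CCT7 were higher by 0.10, 0.23, 0.28 and 0.41. Of the 8 subunits 4 were above and 4 below the median gene. Under median ratio scaling CCT3 stood at 1.02 of the control, CCT6A at 1.03, CCT4 at 1.13, CCT2 at 1.23 and CCT8 at 1.28, and TCP1 (0.923) and CCT5 (0.951) stayed below it. By over 1.2-fold, 3 subunits were then higher and none lower, against 36.0% and 21.1% of all genes tested. The genes of at least 100 CPM were not counted under this scaling. The direction of 5 of the 7 lower subunits after 10 mGy thus depends on the scaling.

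After 100 mGy the subunits lay on both sides of the control. CCT7 stood at 1.26 of the control (1.24 to 1.28), CCT2 at 1.18 (1.17 to 1.2) and CCT8 at 1.05 (1.03 to 1.06). CCT3 stood at 0.992, with an interval of 0.983 to 1.00. CCT6A, CCT4, CCT5 and TCP1 stood at 0.941, 0.926, 0.802 and 0.756. CCT7 was therefore higher by over 1.2-fold, as were 14.0% of all genes tested, and CCT5 and TCP1 were lower by over 1.2-fold, as were 58.9%. The median of the 8 was 0.967, against 0.766 over all genes tested and 0.950 over the 1779 genes of at least 100 CPM, a level that each subunit passed, and 7 of the 8 subunits lay above the median gene. The exception was TCP1, at -0.02 from it on the log2 scale, while CCT2 and CCT7 were above it by 0.63 and 0.72. Under median ratio scaling the median of all genes tested stood at 1.08, and all 8 subunits were above the control. TCP1 stood at 1.07, CCT5 at 1.13, CCT4 at 1.31, CCT6A at 1.33 and CCT3 at 1.40. The direction of all 5 subunits that lay below the control by CPM thus depends on the scaling. By over 1.2-fold, 6 subunits were then higher and none lower, against 39.3% and 21.1% of all genes tested. The genes of at least 100 CPM were not counted under this scaling.

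After 1 Gy the subunits stood between 0.862 (CCT2, 0.851 to 0.872) and 1.08 (CCT7, 1.06 to 1.10) of the control. CCT6A stood at 0.867, CCT5 at 0.898, TCP1 and CCT3 at 0.923 each, CCT8 at 0.979 and CCT4 at 0.991, whose interval reached 1.00. None passed 1.2-fold, and few genes did: 1.28% of all genes tested were higher and 0.846% lower by as much. The median of the 8 was 0.923 and that of all genes tested 1.01, and 7 of the 8 subunits lay below the median gene. CCT2 and CCT6A lay below it by more than most genes, since 2.21% and 2.62% of the genes tested had a lower ratio. CCT7 lay above 80.6% of the genes. By CPM CCT7 alone was above the control, against 56.2% of all genes tested. Under the scaling that averages barcodes in place of pooling them, 2 subunits were above it, and no share of all genes was taken there.

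In 100 mGy against 10 mGy, all 8 subunits were higher, while 32.2% of all genes tested were higher by any amount. CCT3 was 1.27-fold higher (1.25 to 1.28) and CCT2 1.25-fold higher (1.24 to 1.26). These 2 passed 1.2-fold, against 1.35% of all genes tested. No subunit was lower by as much, against 12.7%. CCT6A stood at 1.18, CCT7 at 1.17, CCT5 at 1.10, TCP1 and CCT4 at 1.07 each, and CCT8 at 1.06 (1.05 to 1.07). The share of tested genes with a lower ratio ran from 85.5% for CCT8 to 99.5% for CCT3. The median of the 8 was 1.13 and that of all genes 0.950. All 8 stayed higher after 100 mGy under the other 9 choices of scaling, barcodes or depth, with medians of 1.10 to 1.23, and all 8 stayed above the median gene in each. Of all genes tested, 61.5% were higher too under median ratio scaling, which gave 1.23, and by CPM 48.1% of the 1779 genes of at least 100 CPM were (median 0.995). Which of the 2 low-dose libraries carries this difference cannot be told from 1 library each.

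In 100 mGy against 1 Gy, CCT2 was 1.37-fold higher (1.36 to 1.39), and 14.0% of all genes tested were higher by over 1.2-fold. TCP1 stood at 0.819 (0.809 to 0.829), and 60.6% of all genes tested were lower by over 1.2-fold. The other 6 stood between 0.892 (CCT5) and 1.16 (CCT7). The median of all genes tested was 0.747, and each subunit lay above it, by 0.13 (TCP1) to 0.88 (CCT2) on the log2 scale. By CPM 5 of the 8 subunits were above 1 Gy, against 24.5% of all genes tested. Under median ratio scaling 100 mGy was above 1 Gy for every subunit, and no share of all genes was taken under it. The direction of TCP1, CCT5 and CCT4 (0.935 by CPM) thus depends on the scaling.

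**Figure D2:**
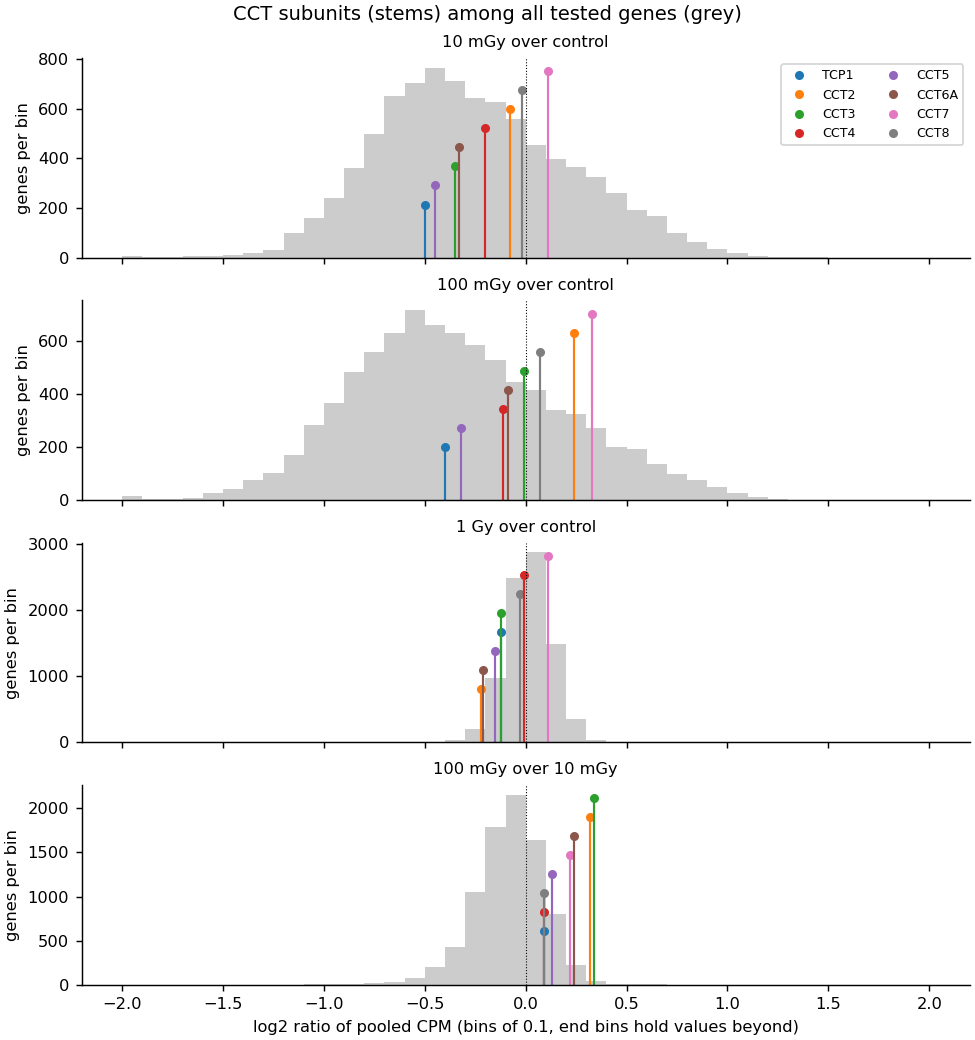
Grey bars count the 8507 tested genes by log2 ratio of pooled CPM (x axis, bins of 0.1) in 4 comparisons, and coloured stems mark the 8 subunits, with the height of a stem carrying no value. The subunits lie inside the broad distributions of 10 mGy and 100 mGy over the control, toward the low side after 1 Gy, and all to the right of 0 in 100 mGy over 10 mGy.

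How alike the subunits were was read from the spread of their log2 ratios. The standard deviation over the 8 log2 ratios was 0.22 after 10 mGy, 0.25 after 100 mGy and 0.11 after 1 Gy. Over the 1779 genes of at least 100 CPM it was 0.52, 0.57 and 0.11, and over the 200 tested genes whose coding length falls in the range of the subunits it was 0.32, 0.34 and 0.11. The 8 subunits thus spread less than both sets at the low doses, by less against the genes of like coding length, and as much as them after 1 Gy. In 100 mGy over 10 mGy the standard deviation was 0.10 for the subunits and 0.16 for each set. Counting intervals of single subunits spanned a few percent at most, so the spread among the 8 at the low doses was larger than counting error.

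All 8 subunits are close in coding length, with 531 to 556 codons, so coding length hardly separates them. Their transcripts differ more, from 1916 bases for CCT7, 2005 for CCT8, 2041 for CCT2 and 2150 for CCT3 to 2499 for TCP1, 2520 for CCT4, 2719 for CCT6A and 3675 for CCT5. Across the 8 subunits the log2 ratio to the control went down with transcript length, with a Spearman rho of -0.74 after 10 mGy, -0.81 after 100 mGy and -0.45 after 1 Gy. Across 8322 tested genes with a length, rho was -0.64, -0.66 and 0.02. In 100 mGy over 10 mGy it was -0.02 for the subunits and -0.23 for all genes. These are descriptions across genes, which share libraries and are not independent, and the part of transcript length in the ratios of the subunits was not tested.

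Tested genes were therefore divided by transcript length into 10 bins of 831 to 834 genes, and each subunit was set beside the bin that holds it. After 10 mGy 7 of the 8 lay within the quartiles of their bin, and TCP1 lay below them, at -0.50 against a lower quartile of -0.42 on the log2 scale. After 100 mGy CCT2, CCT3, CCT6A and CCT7 lay above the upper quartile and the other 4 within. For CCT2 the log2 ratio was 0.24 and the upper quartile 0.08. After 1 Gy 5 subunits lay below the lower quartile, namely TCP1, CCT2, CCT3, CCT5 and CCT6A. In 100 mGy over 10 mGy all 8 lay above the upper quartile, which ranged from 0.03 to 0.04. Among the 200 tested genes of like coding length, the median gene stood at 0.779 of the control after 10 mGy, 0.714 after 100 mGy and 1.03 after 1 Gy.

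**Figure D3:**
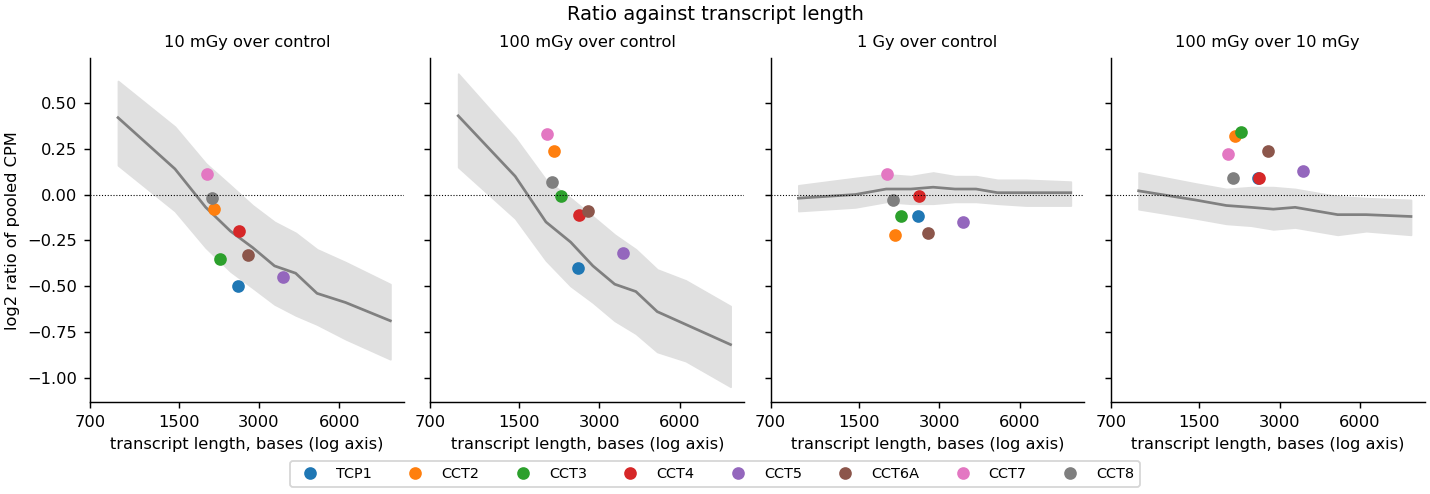
Points give the log2 ratio of pooled CPM (y axis) of each subunit against transcript length in bases (x axis, log axis), and the grey line and band give the median and quartiles of tested genes in 10 bins of length. After 10 mGy the subunits follow the falling line except TCP1 (-0.50), and in 100 mGy over 10 mGy all 8 lie above the band.

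The make-up of the CCT UMIs differed between libraries. The share of TCP1 in all CCT UMIs was 12.1% in the control, 10.3% after 10 mGy, 9.51% after 100 mGy and 12.1% after 1 Gy. The share of CCT5 was 16.3%, 14.3%, 13.6% and 15.9% in the same order. These 2 subunits took a smaller share at both low doses than in the control, with exact binomial intervals that did not overlap. CCT2 took 11.9%, 13.5%, 14.6% and 11.1%, and CCT7 took 6.32%, 8.17%, 8.26% and 7.40%, so both took a larger share at the low doses than in the control. CCT6A moved between 17.7% and 18.8% and CCT3 between 15.4% and 16.9%. CCT8 took 10.4%, 12.3%, 11.3% and 11.1%, and so also took a larger share at the low doses than in the control. CCT4 moved between 7.52% and 8.40%. In all, 5.68% of the CCT UMIs after 10 mGy, 6.05% after 100 mGy and 2.33% after 1 Gy would have to pass from some subunits to others to give the make-up of the control. A share within the complex does not depend on the total or size factor that divides a library, but it would change with the mean of scaled barcodes, which weights barcodes equally.

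**Figure D4:**
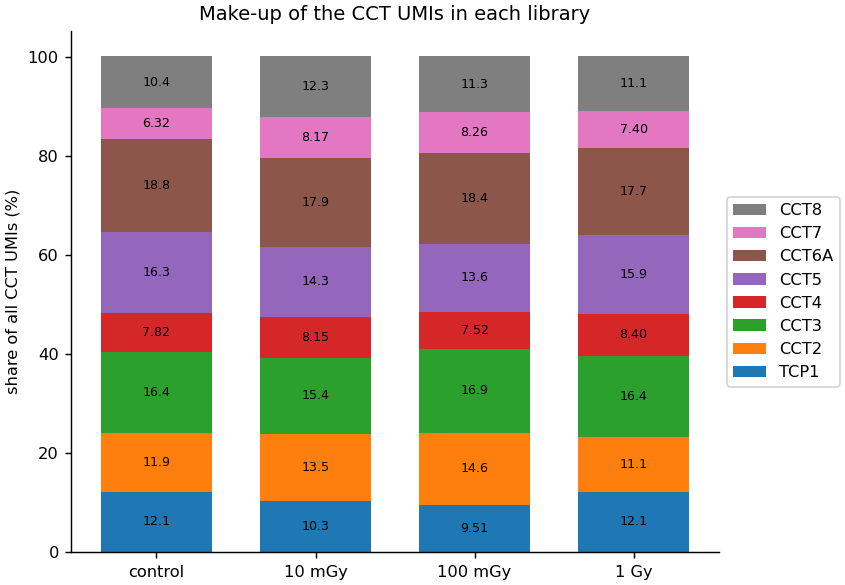
Stacked bars give the share of all CCT UMIs (y axis, %) taken by each subunit in the 4 libraries (x axis), with the share printed in each segment. TCP1 falls from 12.1% in the control to 10.3% and 9.51% at the low doses and stands at 12.1% after 1 Gy, and CCT7 goes from 6.32% to 8.17%, 8.26% and 7.40%.

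A dispersion that fell as the dose rose was one of the rules by which the study picked genes. Each gene's dispersion was taken over barcodes, with UMIs scaled to 10000 per barcode, as the standard deviation in percent of the mean. Of the 8 subunits only CCT2 was less dispersed after 100 mGy (103%) than after 10 mGy (105%), and 1.41% of all genes tested did. The other 7 were higher after 100 mGy, for example TCP1 at 134% against 119.6% and CCT4 at 146% against 133%. All 8 had a higher dispersion after 10 mGy than in the control, as did 94.5% of all genes tested. After thinning 7 did, and with counting variance subtracted 2 did (median 18.9% after 10 mGy and 24.4% in the control). For this comparison the share of all genes was taken in the main setting only. The median over the 8 was 84.8% in the control, 107% after 10 mGy, 118% after 100 mGy and 106% after 1 Gy. Without low-UMI barcodes these medians were 44.8%, 49.9%, 56.1% and 53.7%, and none of the 8 was lower after 100 mGy than after 10 mGy, against 0.329% of all genes tested. With barcodes thinned to 5000 UMIs each, by contrast, all 8 were lower after 100 mGy (median 87.7%) than after 10 mGy (90.9%), against 30.9% of all genes tested. All 8 were also lower with unscaled UMIs (43.9% of all genes tested) or with at least 700 genes per barcode (99.7%). The direction of the dispersion between the 2 low doses thus depends on how barcodes of different depth are treated. Against the control, all 8 were also higher after 10 mGy with unscaled UMIs, without low-UMI barcodes and with at least 700 genes per barcode. That direction changed for most subunits only with counting variance subtracted.

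Nearly every barcode held UMIs of CCT. After thinning to 5000 UMIs, which kept 9060 of 11111 barcodes in the control, 12561 of 21514 after 10 mGy, 14271 of 19950 after 100 mGy and 11530 of 15510 after 1 Gy, the median barcode held UMIs of 6 of the 8 subunits in each library. All 8 were found together in 8.25% of control barcodes (7.69 to 8.83%), 4.86% after 10 mGy (4.49 to 5.26%), 7.61% after 100 mGy (7.18 to 8.06%) and 7.06% after 1 Gy (6.60 to 7.54%). The 10 mGy library was the lowest, as for the summed CPM. Thinning sets each barcode to the same total, much as CPM does, so this is no separate result. Under median ratio scaling the summed level was lowest after 1 Gy (0.895). Without thinning, the shares were 72.1%, 47.8%, 51.5% and 57.8%. No barcode of 9060 in the control lacked all 8, which allows a share of up to 0.0331% (3 counts of 9060), and 3, 3 and 1 barcodes did after 10 mGy, 100 mGy and 1 Gy. No cell type that lacks CCT was in the culture, so the share of barcodes that free RNA alone would give was not measured.

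TCP1 was found in 75.6% of thinned barcodes in the control, 62.9% after 10 mGy, 65.2% after 100 mGy and 73.3% after 1 Gy. CCT2 was found in 75%, 72.7%, 79.9% and 70.5%, and CCT7 in 52.3%, 54.9%, 59.7% and 54.4%. The lowest share was after 10 mGy for TCP1, after 1 Gy for CCT2 and in the control for CCT7, as for their CPM. That likeness follows from thinning to a fixed total and is no separate result. Without thinning, TCP1 was found in 89.0%, 70.3%, 73.8% and 81.1% of all barcodes, CCT2 in 88.3%, 73.2%, 77.5% and 80.1%, and CCT7 in 81.6%, 65.9%, 70.6% and 73.3%, shares that carry the depth of each library.

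Barcodes of the same library were then compared, which leaves the dose fixed. Low-UMI barcodes held more CCT per UMI than the others, by 1.19-fold in the control (1.17 to 1.21), 1.10-fold after 10 mGy (1.09 to 1.11), 1.06-fold after 100 mGy (1.04 to 1.07) and 1.16-fold after 1 Gy (1.14 to 1.18). TCP1 and CCT5 were higher in low-UMI barcodes of all 4 libraries, by 1.15 to 1.24-fold each, and CCT8 by 1.14 to 1.37-fold. CCT6A stayed between 1.01 and 1.08, and CCT4 between 0.988 and 1.19. CCT2 was higher in low-UMI barcodes of the control (1.11), 10 mGy (1.06) and 1 Gy (1.17) but lower in those of 100 mGy (0.862, 0.821 to 0.904). In the low-UMI barcodes alone CCT2 measured 311, 281, 287 and 281 CPM, and in the other barcodes 279.9, 265, 333 and 241 CPM, so the high level of CCT2 after 100 mGy was seen in the barcodes of ordinary depth.

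Between barcodes rich and poor in cell cycle transcripts, CCT levels were close. The summed level of a list of 15 G2/M genes was 3925 CPM in the control, 3083 after 10 mGy, 3445 after 100 mGy and 4077 after 1 Gy, and so was lowest after 10 mGy, like the summed CCT by CPM. That of a list of 15 G1/S genes was 1742, 1651, 1491 and 1775 CPM, lowest after 100 mGy. Both orders are by CPM and were not taken under another scaling, on which the order of the summed CCT depends. The 10% of thinned barcodes with most UMIs of the G2/M list held 1.01 to 1.03 times the summed CCT level of the lower 50%. CCT3 was the subunit with the steadiest difference, at 1.09 in the control (1.03 to 1.14), 1.04 after 10 mGy (0.988 to 1.09), 1.09 after 100 mGy (1.04 to 1.13) and 1.08 after 1 Gy (1.03 to 1.13). For the G1/S list the summed ratio was 0.988 to 1.02. These are ranges of a score and not cell types, and between 87 and 669 barcodes of a library sat at the count that bounds the upper 10%.

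In the 10% of barcodes with most mitochondrially encoded UMIs, the summed CCT level was 0.887 of that in the lower 50% in the control, 0.910 after 10 mGy, 0.854 after 100 mGy and 0.873 after 1 Gy. A larger mitochondrial share by itself leaves less room for other genes, so the ratio was also taken per UMI of other genes, where it was 0.921, 0.941, 0.883 and 0.902. CCT5 was lower in every library on this scale (0.801 to 0.850), and so were CCT2 (0.843 to 0.939) and CCT3 (0.846 to 0.941), with all intervals below 1. TCP1, CCT4 and CCT8 were below 1 in every library too, but not with every interval. CCT6A stood at 1.02 in the control and between 0.890 and 0.966 in the irradiated libraries.

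**Figure D5:**
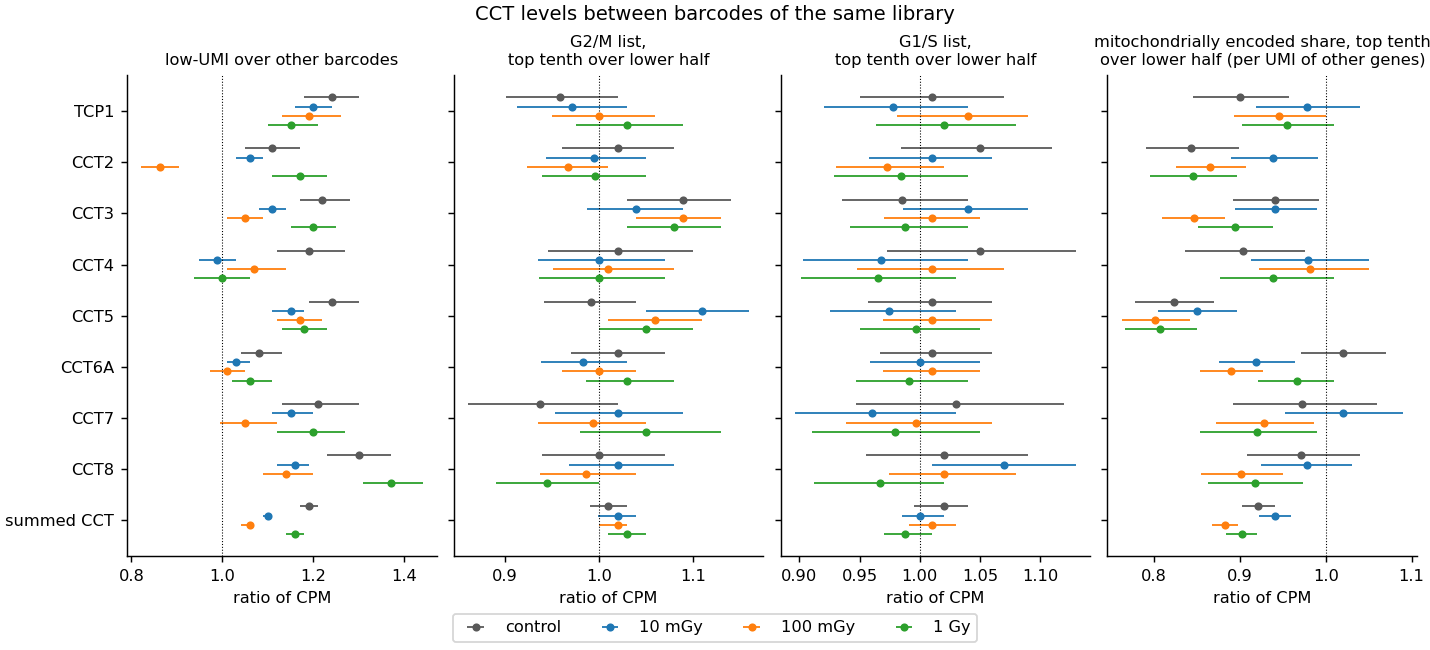
Points give, for each subunit and the summed CCT (y axis), the ratio of CPM between 2 sets of barcodes of the same library (x axis, a scale per panel), with exact 95% conditional binomial intervals for counting error, and colours mark the libraries. CCT2 after 100 mGy is the one point far below 1 in low-UMI barcodes (0.862), and the G2/M and G1/S panels lie close to 1.

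Across barcodes, the correlations between subunits were weak. The median Pearson r of log2(1 + UMIs) over the 28 pairs was 0.01 in the control, 0.01 after 10 mGy, 0.03 after 100 mGy and 0.01 after 1 Gy, at a depth where most subunits had a few UMIs per barcode, and the median r of subunits with 1771 other genes of at least 100 CPM was 0.00. Values this weak in sparse counts are no finding and cannot show whether the subunits move together. For the summed CCT the highest mean r over the 4 libraries was with NPM1, a nucleolar protein (0.15), HSP90AB1 (0.14) and HSP90AA1 (0.11), both cytosolic HSP90 chaperones, NCL, nucleolin (0.14), and the RNA-binding protein HNRNPA2B1 (0.10).

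By pattern over the 4 libraries, the gene nearest to the median of the subunits among 1771 others of at least 100 CPM was SRM, spermidine synthase, with ratios of 0.816, 0.949 and 0.941 after 10 mGy, 100 mGy and 1 Gy. CTNNAL1, FAF2, U2SURP and LMAN1 followed. Likeness was the Euclidean distance of the 3 log2 ratios, which was 0.047 for SRM and had a median of 0.647 over all others. Among the subunits it was 0.092 for CCT3, the nearest, and 0.580 for CCT7, the farthest. Because the median of the subunits is drawn from their own ratios, their distances are made smaller by construction, unlike those of other genes. For CCT7, 776 other genes lay nearer to the median of the subunits.

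The partners and clients of CCT were counted by the same 1.2-fold rule, at which 15.4% of all genes were higher and 53.0% lower after 10 mGy, and 14.0% and 58.9% after 100 mGy. Counts are by pooled CPM unless median ratio scaling is named. Across all genes tested the ratio to the control fell with transcript length at the low doses (Spearman rho -0.64 and -0.66). The genes of these lists were not set beside genes of like length, so the part of length in these counts was not tested. Median ratio scaling multiplies every ratio of a comparison by the same factor, which raised the median of every list at the low doses, and 36.0% of all genes tested were then higher by over 1.2-fold and 21.1% lower after 10 mGy. Of the 6 subunits of prefoldin, 3 were higher after 10 mGy and none lower, from 1.70 for PFDN5 to 0.891 for VBP1, and the same counts held after 100 mGy, where PFDN5 stood at 1.81. Median ratio scaling gave 5 of 6 higher after 10 mGy and 6 of 6 after 100 mGy, when 36.0% and 39.3% of all genes tested were higher. After 1 Gy prefoldin had a median ratio of 1.01, or 0.982 under median ratio scaling. Among the prefoldin-like proteins UXT stood at 1.73 and URI1 at 0.684 after 10 mGy, and 2 of 3 were higher and 1 lower (2 and 0 under median ratio scaling). Of the phosducin-like proteins, which bind CCT as cofactors, PDCL3 stood at 1.17 and PDCL at 0.840, and 0 of 3 passed 1.2-fold after 10 mGy (2 higher under median ratio scaling). The mitochondrial chaperonin, which works apart from CCT, had HSPE1 at 1.23 and its partner HSPD1 at 0.853, and both were above the control under median ratio scaling. MKKS, the 1 gene of 5 in the chaperonin-like list that passed the floor, stood at 0.778, or 1.01 under median ratio scaling.

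Among clients, 6 of 11 tubulin genes were higher after 10 mGy and none lower, from 1.74 for TUBA1A to 0.930 for TUBG1, and 3 were higher after 100 mGy, against 14.0% of all genes. Under median ratio scaling all 11 were higher at both low doses, against 36.0% and 39.3% of all genes tested. Each of the 11 was lower after 100 mGy than after 10 mGy, as were 67.8% of all genes tested, whereas the 8 subunits were higher. Under median ratio scaling 8 of the 11 tubulin genes and 61.5% of all genes tested were higher. Of 4 actin and actin-related genes 2 were lower after 10 mGy, where ACTB stood at 0.914 and ACTR2 at 0.709, and under median ratio scaling 2 of the 4 were above the control. Of 12 other clients that passed the floor 8 were lower and none higher (1 lower and 4 higher under median ratio scaling), from 1.15 for MLST8, a subunit of mTOR complexes, to 0.619 for VHL, the tumour suppressor that targets HIF proteins for degradation. Of 4 tubulin cofactors TBCA stood at 1.44 and TBCD at 0.748, with 1 higher and 1 lower by over 1.2-fold (3 and 0 under median ratio scaling). In the HSP70 and HSP90 chain 1 of 9 was higher and 4 lower (3 higher and 1 lower under median ratio scaling), from 1.28 for HSP90AA1 to 0.625 for STIP1, the adaptor that joins HSP70 to HSP90. All 3 regulators, the heat shock factors HSF1 (0.694) and HSF2 (0.751) and MYC (0.698), were lower by over 1.2-fold after 10 mGy and after 100 mGy. Under median ratio scaling none of the 3 passed 1.2-fold, with medians of 0.909 and 0.940. After 1 Gy no gene of these lists passed 1.2-fold by pooled CPM, and 1 phosducin-like gene was lower by as much under median ratio scaling, as were 1.99% of all genes tested.

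Some subunits lie beside or over other genes, and the levels of such neighbours are given here. Whether any reads were misassigned between them was not tested. ACAT2, which overlaps TCP1 on the other strand, measured 115, 198, 176 and 109 CPM in the control, 10 mGy, 100 mGy and 1 Gy, and so stood at 1.72 and 1.53 of the control at the low doses where TCP1 stood at 0.709 and 0.756. MRPL18, which starts within 1000 bases of TCP1 on the other strand, stood at 1.23 and 1.32. COMMD1, which overlaps CCT4 on the other strand, stood at 1.38 after 10 mGy, 1.47 after 100 mGy and 0.790 after 1 Gy, against 0.869, 0.926 and 0.991 for CCT4. PRADC1, which starts near CCT7 on the other strand, stood at 1.03, 1.02 and 1.01. The neighbours of CCT3, CCT5, CCT6A and CCT8 had a mean below 10 CPM. GENCODE 29 lists 13 pseudogenes of the subunits, none of which is among the deposited genes, so reads shared with a pseudogene make the levels of TCP1, CCT4, CCT5, CCT6A, CCT7 and CCT8 uncertain to an extent that was not tested.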

How the data were processed

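The 4 single-cell libraries of BEAS-2B cells, 1 per group, were prepared with a 3′ kit (Chromium v3). The condition of each library came from the sample labels. The authors deposited raw UMI counts per gene and barcode. The file header names Cell Ranger 7.0.1, and the submitters' processing notes name Cell Ranger, STAR and GRCh37. The sources used here do not say whether intronic reads were counted. Members and lists were chosen with earlier results of these data known.

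UMIs were summed over every deposited barcode and divided by the library total (CPM). Pooled sums replaced the mean of scaled cells, which became an alternative, because sums carry exact counting intervals. Intervals are 95% Poisson, conditional binomial (ratios) or Clopper-Pearson (shares). Genes tested, meaning compared with the 1.2-fold threshold, were those whose mean over the 4 libraries reached 10 CPM. TBCE was left out because 2 identifiers carry it. For dispersion, UMIs were scaled to 10000 per barcode, and the standard deviation was divided by the mean. Doublets were kept, and leaving out barcodes of over 2 times the median UMI count was an alternative. Thinning drew 5000 UMIs per barcode and left out shallower barcodes.

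Named genes were the 8 members, the highest and lowest gene of each list after 10 mGy, the 5 genes nearest in pattern, the 5 with the highest mean correlation, and genes that overlap a member or start within 1000 bases of it on the other strand. Besides these, CCT6B, CDC20, MYC and markers of cell types are named. Lengths, neighbours and pseudogenes came from GENCODE 29, in which 34616 of 36601 identifiers (94.6%) were found. The planned protein lengths were replaced by coding lengths from this annotation. No coordinates are given apart from those of the promoters, which carry their own build, since the build of this annotation is not the one named for the counts. Ratios and dispersion were checked on simulated data. Scripts ran in Python 3.11.15 with matplotlib 3.10.9, pandas 2.3.3, scipy 1.17.1 and numpy 2.4.6.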

Additional observations from a re-analysis of the deposited data

Results flagged for a closer look

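CCT2 in low-UMI barcodes went in opposite directions between libraries. Its ratio of CPM, low-UMI over other barcodes, was 1.11 in the control, 1.06 after 10 mGy and 1.17 after 1 Gy, each with an interval above 1, and 0.862 after 100 mGy, with an interval below 1. The result stood out because the direction after 100 mGy was opposite to that in the other 3 libraries, and the difference between libraries was not tested. No other subunit had intervals on both sides of 1 within the same contrast.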

How the results depend on the processing

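After 1 Gy the median of the 8 subunits stayed below the control under every alternative, and each subunit kept its direction except CCT8, which stood at 1.01 with the mean of scaled barcodes and 1.03 in low-UMI barcodes alone. Directions at the low doses did not all hold. Median ratio scaling, by its construction, moves the median over all genes with counts in every library toward 1. It gave medians of the 8 subunits of 1.08 after 10 mGy, 1.36 after 100 mGy and 0.896 after 1 Gy, with 3 subunits higher and 0 lower by over 1.2-fold after 10 mGy and 6 higher and 0 lower after 100 mGy. CCT3 (1.02), CCT6A (1.03), CCT4 (1.13), CCT2 (1.23) and CCT8 (1.28) after 10 mGy and TCP1 (1.07), CCT5 (1.13), CCT4 (1.31), CCT6A (1.33) and CCT3 (1.40) after 100 mGy then moved above the control. Totals that leave out ribosomal protein and mitochondrially encoded genes gave 0.883 after 10 mGy and 1.05 after 100 mGy, with 2 subunits higher and 1 lower after 100 mGy. The mean of scaled barcodes gave 0.816 after 10 mGy and 0.936 after 100 mGy. Thinning to 5000 UMIs gave 0.821, 0.962 and 0.932 after 10 mGy, 100 mGy and 1 Gy, and dropping barcodes of over 2 times the median UMI count gave 0.971 after 100 mGy. The 1.5-fold threshold left 0 subunits past it after 10 mGy and 100 mGy.

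The higher level of all 8 subunits after 100 mGy than after 10 mGy held in every alternative, all of them chosen for this comparison after the data were seen. Its median was 1.10 with the mean of scaled barcodes, 1.23 with median ratio scaling (where 61.5% of all genes were higher, against 32.2% by CPM), 1.16 with totals that leave out ribosomal protein and mitochondrially encoded genes, 1.14 without low-UMI barcodes, 1.12 after thinning and 1.10 in low-UMI barcodes alone. In low-UMI barcodes alone, also chosen later, the medians against the control were 0.741, 0.867 and 0.882 after 10 mGy, 100 mGy and 1 Gy, and 0 subunits were higher by over 1.2-fold after 100 mGy.

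The dispersion was lower after 100 mGy than after 10 mGy for 1 subunit in the main setting. It was lower for 8 with unscaled UMIs, with at least 700 genes per barcode, and after thinning to 1500 or 5000 UMIs. It was lower for 2 with counting variance subtracted and for 0 without low-UMI barcodes, and the cause was not tested. No share of all genes was taken for thinning to 1500 UMIs or with counting variance subtracted. With unthinned scaled UMIs the median correlation of pairs was 0.05 in the control, after 10 mGy and after 1 Gy, and 0.08 after 100 mGy. A floor of 100 CPM gave 30.7% of genes higher and 37.1% lower after 10 mGy and 30.9% and 39.0% after 100 mGy, and a floor of 1 CPM gave 12.6% and 60.9% after 100 mGy and 3.14% and 1.42% after 1 Gy. Among single subunits, 172 of the values under an alternative stayed within the counting interval, 112 left it, and 4 more left it, lost a call past 1.2-fold and crossed 1. The missing replicates limit these levels, and the direction of many subunits at the low doses depended on the scaling. No paired analysis was possible because each group was 1 library.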
